A study of Mus musculus with 4 samples.

Results

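The 10 matrix metalloproteinase genes that lie side by side on mouse chromosome 9 (Mmp13, Mmp12, Mmp1b, Mmp3, Mmp1a, Mmp10, Mmp8, Mmp27, Mmp20 and Mmp7, in map order) were examined in TEAD1 chromatin immunoprecipitation sequencing (ChIP-seq) of cardiac fibroblasts from neonatal mice. A peak was counted to the cluster when its summit, the position of highest ChIP signal, lay in a member's annotated span or within 50 kb of either end. These windows join into 1 interval, chr9:7222514-7749585 (GRCm38), of 527.072 kb. It held 5 of the 21285 peaks of the first deposited list (list 1) and 9 of the 21218 peaks of the second (list 2). The fibroblasts carried either TEAD1 overexpression (OE-TEAD1) or the overexpression negative control (OE-NC), and each condition gave 1 ChIP library and 1 library of input, the sonicated chromatin kept back before immunoprecipitation. The 4 libraries had no replicates, and the sources used here name no antibody, no construct, no level of TEAD1 in the cells and no pooling of animals. The labels do not say which list came from which condition, so the lists are named by number and no direction between OE-TEAD1 and OE-NC was drawn. Peaks measure binding and not RNA, so neither the labelled cell type nor the activity of the genes could be checked against expression.

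Matrix metalloproteinases are zinc-dependent proteases that are secreted as inactive precursors and cut components of the extracellular matrix once their propeptide is removed. The chromosome 9 cluster holds the collagenases (Mmp13, Mmp8, Mmp1a, Mmp1b), which can cut intact fibrillar collagen, the stromelysins (Mmp3, Mmp10), the small matrilysin Mmp7, the macrophage elastase Mmp12, the enamel protease Mmp20 and the little-studied Mmp27. Many of these genes are silent in resting tissue and are switched on by inflammatory and growth signals through AP-1, the Fos and Jun dimer, close to their start. TEAD1 binds DNA and has little activity without a coactivator such as YAP or TAZ, and TEAD and AP-1 often occupy the same distal enhancers in other cells.

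The proximal promoters of the cluster are shown first because they held an AP-1 motif in 8 of 10 genes. Windows of 250 bases before to 50 bases after each annotated start were taken from the RefSeq promoter table of GRCm38.p6, which matched all 10 genes and gave 12 windows, since Mmp12 and Mmp7 have a second start. The 120 bases that end just before the start are printed 5′ to 3′ along each gene for the 8 genes with an AP-1 match, and for Mmp12 this is the second start. Capitals mark the AP-1 motif TGANTCA (N is any base) and the TATA motif TATAAA.
Mmp13 (chr9:7272394-7272513, forward strand): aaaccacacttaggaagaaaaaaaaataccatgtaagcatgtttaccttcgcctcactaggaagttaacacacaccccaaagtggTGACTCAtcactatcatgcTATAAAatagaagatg
Mmp1a (chr9:7464021-7464140, forward strand): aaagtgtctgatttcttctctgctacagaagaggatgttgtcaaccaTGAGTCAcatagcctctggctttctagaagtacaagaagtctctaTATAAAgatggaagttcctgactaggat
Mmp1b (chr9:7388027-7388146, reverse strand): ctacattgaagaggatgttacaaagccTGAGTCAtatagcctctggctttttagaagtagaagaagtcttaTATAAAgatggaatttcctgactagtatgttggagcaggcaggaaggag
Mmp3 (chr9:7445702-7445821, forward strand): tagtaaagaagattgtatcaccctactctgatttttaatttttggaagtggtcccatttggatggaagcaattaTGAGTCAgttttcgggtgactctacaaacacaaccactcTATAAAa
Mmp10 (chr9:7502222-7502341, forward strand): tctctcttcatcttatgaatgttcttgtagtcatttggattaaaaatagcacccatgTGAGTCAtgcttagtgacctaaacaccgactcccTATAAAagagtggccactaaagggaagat
Mmp12 (chr9:7347254-7347373, forward strand): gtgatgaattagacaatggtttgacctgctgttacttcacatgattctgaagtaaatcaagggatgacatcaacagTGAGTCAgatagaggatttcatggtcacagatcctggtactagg
Mmp7 (chr9:7691970-7692089, forward strand): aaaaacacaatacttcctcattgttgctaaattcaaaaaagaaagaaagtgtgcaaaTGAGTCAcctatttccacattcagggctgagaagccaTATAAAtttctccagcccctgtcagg
Mmp20 (chr9:7628111-7628230, forward strand): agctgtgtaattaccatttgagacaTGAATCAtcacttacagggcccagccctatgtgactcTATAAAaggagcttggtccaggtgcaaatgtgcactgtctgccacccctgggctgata

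The motif stood 35 to 95 bases before the start in those 8 genes. Mmp13 carried TGACTCA 35 bases before its start and Mmp20 carried TGAATCA 95 bases before it. The other 6 genes shared TGAGTCA, which lay 46 bases before the start in Mmp3, 63 bases in Mmp10 and in Mmp7, 73 bases in Mmp1a and 93 bases in Mmp1b, and 44 bases before the second start of Mmp12. AP-1 was thus present in 8 of 10 genes, while 8.12% of the 17491 protein-coding genes of the table, and 7.81% of its 32851 windows, held a match. TATAAA was found on either strand in 9 of 10 genes, with Mmp27 the exception, against 14.8% of protein-coding genes and 13.6% of windows. This count set no position within the window. In Mmp12 the match began 4 bases after the second start, and in Mmp8 it was the reverse-strand TTTATA 3 bases before the start. TGTGGT, the core bound by Runx factors, was found in Mmp13, Mmp1b, Mmp27 and the second window of Mmp7, or 4 of 10 genes, against 17.2% of protein-coding genes and 16.8% of windows. GGAATG, the core bound by TEAD factors, was found in 0 of 10 genes, against 15.5% of protein-coding genes and 14.7% of windows. With so few genes a count of 0 is near that share and does not set the cluster apart. Both strands were read, TGANTCA is its own reverse complement as a pattern, and none of the other motifs overlaps it in the windows printed. A match is a string of letters and no evidence of binding, and the absence of GGAATG holds for these windows only.

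Among the 45 pairs of members, the windows of the collagenases Mmp1a and Mmp1b were the most alike, with 74.7% of aligned positions identical. The next pair, the stromelysins Mmp3 and Mmp10, reached 57.9%, and the median pair was at 50.8%. Mmp1a and Mmp1b are closely related copies, and how the authors treated reads that map to more than 1 place is not given, so the lack of peaks beside these genes is uncertain on that count.

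**Figure D1:**
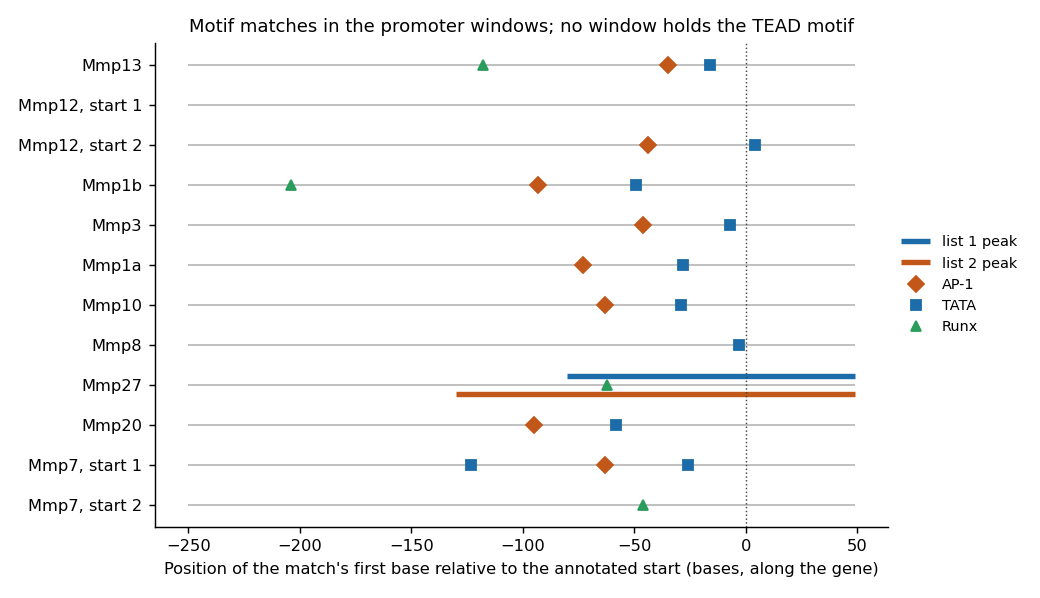
Motif matches in the 12 promoter windows of the 10 metalloproteinase genes. The horizontal axis gives the position of a match's first base relative to the annotated start in bases; diamonds are AP-1, squares TATA and triangles Runx matches, and the bars at Mmp27 mark the part of its window covered by the list 1 and list 2 peaks. The AP-1 diamonds lie 35 to 95 bases before the start in 8 genes, and the window covered by a peak, that of Mmp27, has none.

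Mmp27 was the 1 member whose annotated start lay inside a peak, in list 1 and in list 2 alike. Across the genome a start lay inside a peak for 0.858% of protein-coding genes in list 1 and 0.789% in list 2. Among genes with an AP-1 match in their window the share was 1.90% (27 of 1420) in list 1 and 1.76% (25 of 1420) in list 2, and among genes without one it was 0.765% (123 of 16071) in list 1 and 0.703% (113 of 16071) in list 2, a description with no test. In the cluster, the 8 members with AP-1 had no peak at the start, and Mmp27 has no match. The Mmp27 peak reached 80 bases before the start in list 1 and 130 bases in list 2, and the summit lay 290 and 286 bases inside the gene, beyond the window. The 250 bases before the Mmp27 start are given because this is the promoter sequence of the cluster that a peak covers, with capitals for the 80 bases inside the list 1 peak, which hold the Runx match TGTGGT 62 bases before the start.
Mmp27 (chr9:7571146-7571395, forward strand): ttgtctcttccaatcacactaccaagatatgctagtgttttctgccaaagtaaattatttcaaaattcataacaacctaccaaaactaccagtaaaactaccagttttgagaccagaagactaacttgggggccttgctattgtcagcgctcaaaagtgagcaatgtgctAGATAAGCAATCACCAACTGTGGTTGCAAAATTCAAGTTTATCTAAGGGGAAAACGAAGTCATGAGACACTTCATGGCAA

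The collagenase genes stood at the left end and in the middle of the cluster and differed in their peaks. Mmp13, Mmp1a and Mmp1b had no summit in the span or within 10 kb in either list. Mmp8 had 1 such summit in list 1 and 3 in list 2. Mmp13 (chr9:7272514-7283333, forward strand), the main collagenase of rodents, had its nearest summit 29.6 kb away in list 1 and 22.4 kb away in list 2, with 1 and 3 summits within 50 kb. Mmp8 (chr9:7558429-7568486, forward strand), the neutrophil collagenase, had a summit 3.20 kb past its far end in each list, and this was the peak at the Mmp27 start. List 2 added 2 summits to the 2 that both lists hold within 50 kb of Mmp8, 1 of them 5.96 kb before its start. Mmp1a (chr9:7464141-7476869, forward strand) and Mmp1b (chr9:7367670-7388026, reverse strand), the mouse counterparts of human interstitial collagenase, had no summit within 50 kb in either list. Their nearest summits were 94.8 and 125 kb away in list 1, and 75.6 and 62.0 kb away in list 2.

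The stromelysins and the macrophage elastase also lay far from any peak. Mmp3 (chr9:7445822-7455975, forward strand), a broad-range protease that also activates other metalloproteinases, had no summit within 50 kb, and the nearest was 116 kb away in list 1 and 96.5 kb in list 2. Mmp10 (chr9:7502342-7510242, forward strand) had its nearest summit 61.4 kb away in list 1 and 42.2 kb in list 2, where it was the weakest peak of the cluster. Mmp12 (chr9:7344397-7360461, forward strand) had its nearest summit 102 kb away in list 1 and 38.7 kb in list 2.

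The right end of the cluster held most of the peaks. Mmp27 (chr9:7571396-7581885, forward strand) was the 1 member with a summit inside its span, 1 summit in list 1 and 2 in list 2. Mmp20 (chr9:7628231-7674968, forward strand), known for its work in tooth enamel, had a summit 3.66 kb past its far end in list 1 and 3.68 kb in list 2. Mmp7 (chr9:7692090-7699585, forward strand), a protease made mostly by epithelia, had its nearest summit at the same sites, 13.5 kb before its start in list 1 and 13.4 kb in list 2.

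Counted over the cluster, 3 of 10 members had a summit in the span or within 10 kb in each list, Mmp8, Mmp27 and Mmp20, against 33.3% of protein-coding genes in list 1 and 33.4% in list 2. Within 50 kb the count was 5 of 10 members in list 1 and 7 of 10 in list 2, against 57.5% and 58.3% of protein-coding genes. The shares of the members were thus near those of all genes, and neighbouring members share peaks, so that the 3 members within 10 kb in list 1 rest on 2 sites.

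**Figure D2:**
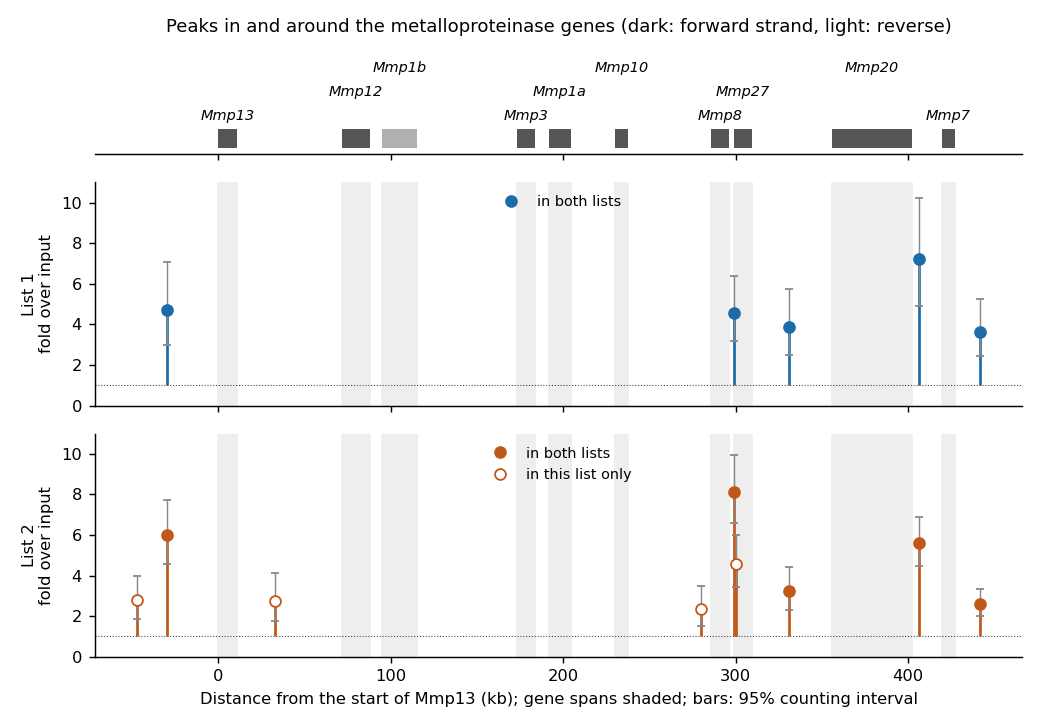
Peaks around the 10 metalloproteinase genes in list 1 and list 2. The horizontal axis gives the distance from the Mmp13 start in kb, the vertical axis the authors' fold of the ChIP signal over input at the summit, with exact Poisson 95% intervals of the ChIP fragments; filled points are in both lists, open points in list 2 only, and the boxes above mark the gene spans. The 5 list 1 peaks lie beside Mmp13, Mmp27, Mmp20 and Mmp7, and no peak of either list lies in or between Mmp12 and Mmp10.

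The stretch without a peak ran from the summit before Mmp13 at 7242884 to the Mmp27 summit at 7571686 in list 1, which is 329 kb with 7 members inside (Mmp13, Mmp12, Mmp1b, Mmp3, Mmp1a, Mmp10 and Mmp8). In list 2 it ran over 247 kb, from 7305694 to 7552469, and held 5 members (Mmp12, Mmp1b, Mmp3, Mmp1a and Mmp10). Gaps between neighbouring summits of this length or longer made up 6.95% of all gaps in list 1 and 9.73% in list 2. The median gaps were 29.2 and 31.4 kb. These shares count gaps, and long gaps cover a larger share of the genome's length than of the number of gaps. By length such gaps are thus more common than these shares say. The 5 members inside both gaps, which include both stromelysins, all carry AP-1 in the promoter window, as do 8 of all 10 members. Mmp13, Mmp20 and Mmp7 carry it too and lie outside the list 2 gap.

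Each peak of the cluster is described by the authors' fold at the summit, which is the number of ChIP fragments over the local background that the caller took from input, with 1 added to both. Both numbers were recovered from the deposited fold and −log10 p. The intervals are exact Poisson 95% intervals of the ChIP fragments, hold no error but that of counting ChIP fragments, and say nothing of how another culture would vary. Peaks are ranked by −log10 q within their own list.

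The site before Mmp13 (list 1 chr9:7242630-7243114, list 2 chr9:7242657-7243092) lay in no annotated gene span. It had 21 fragments over a background of 3.67 in list 1, a fold of 4.72 (3.0 to 7.10), and 58 fragments over 8.86 in list 2, a fold of 5.99 (4.57 to 7.71). It is nearer to Dcun1d5, a neddylation factor gene 22.0 kb away in list 1, than to Mmp13. It stood at rank 13186 in list 1 and at rank 5443 in list 2.

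The site at the Mmp27 start (list 1 chr9:7571316-7571963, list 2 chr9:7571266-7572022) had 32 fragments over a background of 6.22 in list 1, a fold of 4.57 (3.17 to 6.39). In list 2 it had 93 fragments over 10.6, a fold of 8.13 (6.58 to 9.94), the highest fold of the cluster in that list, at rank 2532. The summit also lay in the span of Gm31751, a long noncoding RNA gene. This was the 1 shared site of the cluster whose fold intervals did not overlap between the lists. How often that holds over all shared sites is not given here. The log2 fold ratio of list 1 to list 2 at this site was −0.83. Over all 15015 shared sites the median was −0.15 and the standard deviation 0.547.

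The site after Mmp27 (list 1 chr9:7603414-7603743, list 2 chr9:7603377-7603664) lay in the Gm31751 span, 21.7 kb past the end of Mmp27. It had 22 fragments over a background of 4.97 in list 1, a fold of 3.85 (2.48 to 5.74), and 36 over 10.4 in list 2, a fold of 3.24 (2.29 to 4.45). It stood at rank 14999 in list 1 and at rank 14471 in list 2.

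The site after Mmp20 (list 1 chr9:7678246-7679377, list 2 chr9:7678022-7679273) lay in the span of the long noncoding RNA gene AV064505 and was the widest of the cluster, 1132 bases in list 1 and 1252 in list 2. It had 29 fragments over a background of 3.17 in list 1, a fold of 7.20 (4.90 to 10.2), the highest of the cluster in that list, at rank 7083. In list 2 it had 84 fragments over 14.2, a fold of 5.59 (4.47 to 6.90), at rank 4009. The strongest site by fold was thus a different one in each list.

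The site after Mmp7 (list 1 chr9:7714102-7714367, list 2 chr9:7714004-7714410) lay in no gene span, 14.7 kb past the end of Mmp7. It had 27 fragments over a background of 6.68 in list 1, a fold of 3.65 (2.45 to 5.25), and 60 over 22.3 in list 2, a fold of 2.61 (2.01 to 3.35). Its list 2 background was the highest of the cluster and 12 times the floor of that list.

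The remaining 4 peaks were called in list 2 only. The peak at 7572891 (chr9:7572783-7573085) lay 1.5 kb inside Mmp27 and had 50 fragments over a background of 10.1, a fold of 4.57 (3.42 to 6.00). The other 3 were weaker. The peak at 7225301 (chr9:7225241-7225524), 4.42 kb from Dcun1d5 and 47.2 kb before Mmp13, had 27 fragments over 9.06, a fold of 2.78 (1.87 to 4.00). The peak at 7305694 (chr9:7305569-7305840), 22.4 kb past the end of Mmp13, had 22 fragments over 7.35, a fold of 2.75 (1.77 to 4.11). The peak at 7552469 (chr9:7552442-7552790), 5.96 kb before Mmp8, had 22 fragments over 8.87, a fold of 2.33 (1.5 to 3.48), at rank 21004 of 21218.

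The limit of 50 kb fell beside a further weak peak. In list 2 the next summit to the right, at 7749764, lay 0.179 kb outside the limit and had 29 fragments over a background of 12.4, a fold of 2.24. In list 1 the next summit, at 7754228, lay 4.64 kb outside and had a fold of 7.24, about the value of the strongest list 1 peak inside. To the left the next summits lay 554 kb outside in list 1 and 496 kb outside in list 2, with folds of 11 and 4.55.

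The folds of the cluster are read against a raised input background. The floor, which is the lowest background found anywhere in a list, stood at 1.72 fragments for list 1 and at 1.87 for list 2, and the medians over all peaks were 2.07 and 2.03. The cluster's background had a median of 4.97 (3.17 to 6.68) in list 1 and 10.1 (7.35 to 22.3) in list 2. At least 2 times the median of the list, 4.15 fragments in list 1 and 4.06 in list 2, was reached by 3 of the 5 list 1 peaks and by 9 of the 9 list 2 peaks. Over all peaks this share was 4.87% in list 1 and 3.55% in list 2.

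The metalloproteinase genes sit within a longer stretch of the same kind. Walking outward from the cluster in list 2 until 3 peaks in a row fell under 2 times the median gave chr9:5812338-8837412, which is 3.03 Mb and holds 21 protein-coding genes. Among them are Pdgfd, a growth factor, Birc2 and Birc3, inhibitors of cell death, and Yap1, which encodes the TEAD coactivator. All 80 list 2 peaks of the stretch were at or over the threshold, with a median background of 11 (6.02 to 22.3), 5.87 times the floor. The 3 peaks just beyond each end, which the rule places under the threshold, were between 1.87 and 2.84. In list 1, 35 of the 42 peaks of the same stretch reached the threshold, with a median of 4.69 (3.14 to 9.85), 2.72 times the floor, and the 3 peaks beyond each end were between 1.72 and 4.15. The walk in list 1 did not stop on the left before the start of the chromosome, so the list 2 limits were used for both lists, a choice made after these values were seen. The difference in height between the lists was local, since their floors and their medians over all peaks were close to each other. Each condition has its own input library, so whether the height belongs to the list's cells or to its input library cannot be told apart, and what raises it in this stretch was not tested.

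**Figure D3:**
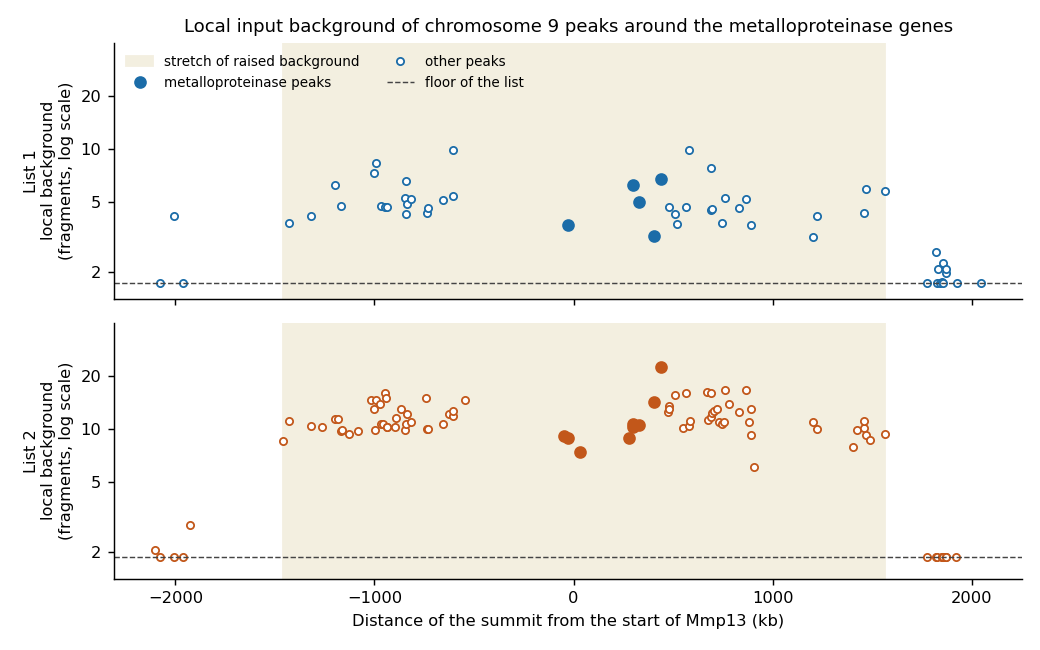
Local input background at the summits of chromosome 9 peaks around the metalloproteinase genes, list 1 above list 2. The horizontal axis gives the distance from the Mmp13 start in kb, the vertical axis the background in fragments on a log scale; filled points are the cluster's peaks, open points other peaks, the shaded band the stretch of raised background, and the dashed line the floor of the list. Inside the band the list 2 points lie between 6.02 and 22.3 fragments and the list 1 points between 3.14 and 9.85.

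Within that stretch the cluster's peaks had a lower median fold than the other peaks, given here without a test. The median fold was 4.57 (3.65 to 7.20) for the 5 cluster peaks of list 1, 6.05 (2.82 to 37.5) for the 37 other peaks of the stretch and 6.24 for all peaks of the list. In list 2 it was 3.24 (2.33 to 8.13) for the 9 cluster peaks, 4.06 (2.09 to 49.5) for the 71 others and 6.83 for all. No cluster peak reached 10-fold in either list, while 9 of 37 (24.3%) and 12 of 71 (16.9%) of the other peaks of the stretch did, and 22.9% and 28.1% of all peaks. The ChIP fragments alone gave another order, because the background enters the fold. Cluster peaks had a median of 27 fragments in list 1 and 50 in list 2, other peaks of the stretch 40 and 51, and all peaks 19 and 22. The cluster had 9.49 peaks per Mb in list 1 and 17.1 in list 2, the rest of the stretch 14.8 and 28.4, and the whole list 8.37 and 8.32.

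All 5 list 1 peaks of the cluster overlapped a list 2 peak by at least 1 base, while the reverse held for 5 of 9 peaks of list 2 (55.6%). Over all peaks the shared portion was 70.9% of list 1 and 71.4% of list 2. The rest of the stretch was as lopsided as the cluster, with 36 of 37 list 1 peaks (97.3%) and 35 of 71 list 2 peaks (49.3%) shared. The summits of the 5 shared sites lay 4 to 84 bases apart.

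Fragment numbers at the shared sites were lower in list 1 at all 5 sites. The ratio of list 1 to list 2 was 0.362 (0.209 to 0.606) before Mmp13, 0.344 (0.223 to 0.519) at the Mmp27 start, 0.611 (0.342 to 1.07) after Mmp27, 0.345 (0.218 to 0.532) after Mmp20 and 0.450 (0.275 to 0.720) after Mmp7, with 95% intervals of counting error. The interval reached past equal numbers only at the site after Mmp27. Equal numbers are no neutral mark, since library totals are not known and the median ratio over all 15015 shared sites was 0.867. The share of all shared sites whose interval left out equal numbers was not computed. The background was lower in list 1 at the same 5 sites, with ratios between 0.223 after Mmp20 and 0.589 at the Mmp27 start. The folds, which divide by the background, differed in no common direction, with ratios of 0.788 before Mmp13, 0.562 at the Mmp27 start, 1.19 after Mmp27, 1.29 after Mmp20 and 1.39 after Mmp7.

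The median log2 ratio of list 1 to list 2 over the 5 sites was 0.25 for the fold, −1.47 for the fragments and −1.27 for the background. Over the 35 other shared sites of the stretch it was −0.25 for the fold, −1.38 for the fragments and −1.20 for the background, and fragments and background were higher in list 1 at 0 of the 35. Over the 14975 shared sites outside the stretch it was −0.15, −0.20 and −0.11. At the shared sites along the whole stretch, fragment numbers were thus lower in list 1 than in list 2. They were low only in that comparison. In list 1 the median was 27 over the cluster's peaks and 40 over the other peaks of the stretch, against 19 over all peaks. In list 2 these medians were 50, 51 and 22. With 1 library behind each list no test of these differences was possible.

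**Figure D4:**
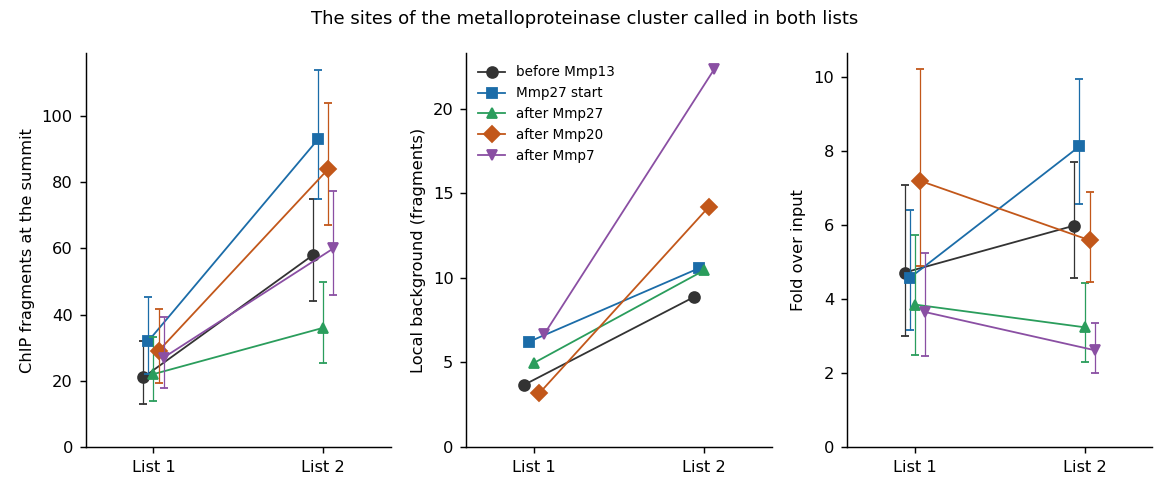
The 5 sites of the cluster called in both lists, with ChIP fragments at the summit (left), local background in fragments (middle) and fold over input (right), each in list 1 and list 2. Lines join the values of 1 site and bars are exact Poisson 95% intervals of the ChIP fragments; fragments and background are higher in list 2 at all 5 sites, while the fold is higher in list 1 at 3 sites and in list 2 at 2.

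A raised background changes which folds can be called. The lowest −log10 p in the lists was 3.68 in list 1 and 3.62 in list 2, and at the floor this takes 8 fragments in each list, a fold of 3.30 in list 1 and 3.14 in list 2. At the median background of the cluster it takes 15 fragments, a fold of 2.68, in list 1 and 23 fragments, a fold of 2.15, in list 2. The list 2 peak before Mmp8, with a fold of 2.33, would be 12.9 fragments at the list 1 median background of the cluster, under the 15 needed. The list 2 peaks at 7225301 and 7305694 would be 15.6 and 15.5 fragments, right at that limit. The list 2 peak inside Mmp27 would be 26.3 fragments, above the limit, and no separate list 1 peak was called there. These numbers take an equal fold and a background of 4.97 at every site. The list 1 background at these positions is not known, and it ran from 3.17 to 6.68 at the cluster's list 1 peaks. Why these peaks are missing from list 1 was not tested.

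**Figure D5:**
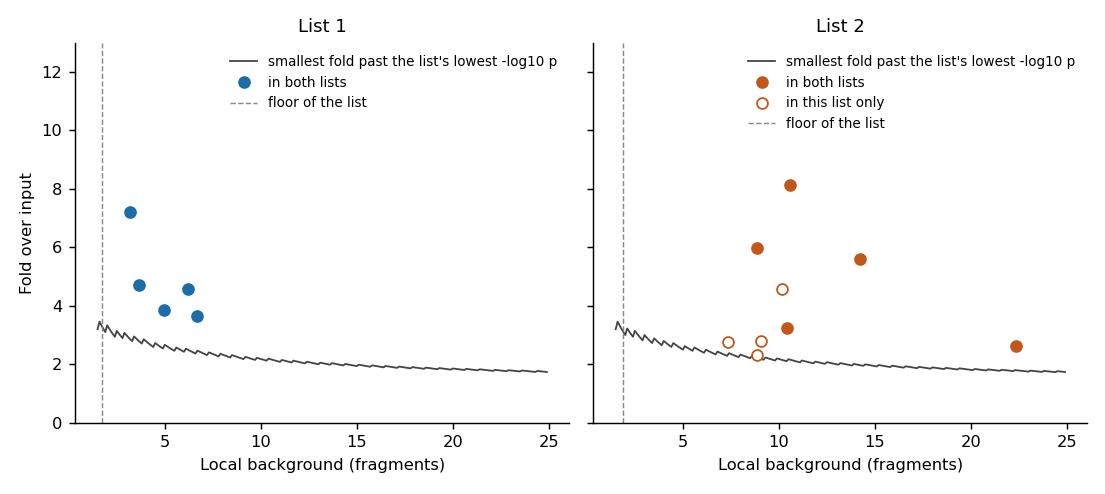
Fold over input against local background for the cluster's peaks, list 1 on the left and list 2 on the right. The line is the smallest fold that passes the lowest −log10 p in that list at each background, the dashed line the floor; 3 of the 4 open points, with folds of 2.33 to 2.78, lie close to the line, and filled points are sites in both lists.

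Metalloproteinase genes elsewhere and their inhibitors show the range of signal in the same libraries. Of 17 other Mmp and Timp genes, 9 had a summit in the span or within 10 kb in list 1. In list 2 this held for 8 of the 17. The shares over all protein-coding genes were 33.3% in list 1 and 33.4% in list 2. Among the genes with a summit, the strongest peak had a median fold of 6.24 in list 1 and 6.98 in list 2. The median background was 1.72 and 1.87. Timp3 and Timp2, secreted inhibitors, had folds of 26.1 and 23.9 in list 1 and 23.2 and 29.7 in list 2, and Mmp14, a membrane-bound collagenase, had 23.5 in list 1 and 31.4 in list 2. Mmp2, the gelatinase made by fibroblasts, had 7.43 in list 1 and 6.98 in list 2. Mmp28, Timp1, Mmp11 and Mmp24 had peaks of 3.49- to 6.99-fold in the 2 lists, and Mmp19 had one of 3.11-fold in list 1 only. Mmp9, Mmp15, Mmp16, Mmp17, Mmp21, Mmp23, Mmp25 and Timp4 had none. The highest fold of the cluster was 7.20 in list 1 and 8.13 in list 2, below the folds of Timp3, Timp2 and Mmp14, whose backgrounds were 1.72 to 2.84 fragments. In ChIP fragments the list 2 sites of the cluster were level with them, with 93 at the Mmp27 start and 84 after Mmp20, against 88 for Timp3, 84 for Timp2 and 89 for Mmp14. In list 1 the same cluster sites had 32 and 29 fragments, against 89 for Timp3, 64 for Timp2 and 63 for Mmp14.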

How the data were processed

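ChIP-seq of TEAD1 and input was measured in OE-TEAD1 and OE-NC cardiac fibroblasts, 1 library each. Per the submitters' processing notes, trimming used Trimmomatic 0.33, alignment Bowtie 1.1.2 and peak calling MACS2, whose version and settings are not given here. The 2 deposited peak lists have no header. They give a fold (a ratio of ChIP to local background), −log10 p and −log10 q as the authors' values for each peak, and a deposited score that is the whole part of 10 times −log10 q in all but 2 peaks. They were used only to describe, rank and filter peaks.

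Fold and −log10 p were solved for ChIP fragments and background. In either list, 99.99% of peaks gave a whole fragment number (tolerance 0.02). Library totals are not in the lists, and 0 replicates allow no test. The notes name mm39. Positions were read as GRCm38. Summits within 1 kb of a RefSeq GRCm38.p6 start numbered 762 in list 1 and 705 in list 2. After moving them by 50 or 100 kb they numbered at most 442 and 441. Starts of mm39 were not compared, so this check cannot tell the builds apart. Members, gene lists and motifs were chosen with earlier results of these data known. All 10 members are named, together with every peak of the cluster. The solving of fragments was tested on simulated data. Python 3.11.15, numpy 2.4.6, pandas 2.3.3, scipy 1.17.1 and matplotlib 3.10.9 were used.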

Additional observations from a re-analysis of the deposited data

How the results depend on the processing

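Of 89 alternative values, 69 stayed within their limits, 17 moved and 3 changed sign. The median log2 fold ratio of list 1 to list 2 has no stable direction. It was 0.25 over 5 shared sites. With the gene spans alone it became −0.83, the value of the 1 shared site at the Mmp27 start. It became −0.23 with a 10 kb window, over 2 shared sites. With fragments over the floor of each list, an alternative chosen after seeing the data, it became −1.35. With spans alone the cluster held 1 peak in list 1 and 2 in list 2, where the median fold was 6.35. It held 2 and 4 peaks with a 10 kb window, and 8 in list 1 with a 100 kb window. At a −log10 q of at least 5, 83.3% of the list 2 peaks were shared. Among the 5000 strongest peaks list 1 kept 0 in the cluster, so 0 members had a summit within 10 kb or 50 kb and medians have no value. List 2 kept 2, at the Mmp27 start and after Mmp20, with a median fold of 6.86, 88.5 fragments and 4 members within 50 kb. Their 0% shared was fixed by the 0 peaks kept in list 1, and both overlap a peak of the full list 1. In each list 3 of the other Mmp and Timp genes were left. The changed counts follow from the peaks each setting admits, and the cause of the changed ratios was not tested. No paired analysis was possible because each group held 1 library and the lists carry no condition. Fragment numbers of 21 to 32 at the list 1 sites limit what can be told apart there.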
